A study of Mus musculus with 12 samples.

Results

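Collagen genes were selected by symbol, as every gene of the array annotation named Col, a type number, a and a chain number, and 42 of the 18193 genes measured met this rule. They fell into 11 genes of the fibrillar collagens, 9 genes of basement membrane collagens and 22 other genes, the last made up of 9 fibril-associated, 5 beaded filament, 3 network, 4 transmembrane and 1 further gene. Col28a1 and Col6a6 were not measured here. The mRNA came from neural tubes, the embryonic precursor of brain and spinal cord, which were dissected from embryos of the outbred ICR (CD-1) mouse stock at gestation days 8.5, 9.0 and 9.5, here GD8.5, GD9.0 and GD9.5, and was hybridised to Affymetrix mouse genome arrays. The labels give 4 biological replicates per stage without saying whether each is an embryo, a litter or a pool, so the tests measure the spread between these samples. Results rest on the 10 arrays whose deposited values are log2 levels, namely replicates 3 and 4 at GD8.5, 4 arrays at GD9.0 and 4 arrays at GD9.5. Replicates 1 and 2 of GD8.5 were deposited as linear intensities and enter only an alternative fit of all 12 arrays.

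Collagen chains carry a repeated glycine motif that lets 3 of them wind into a rope-like helix in the endoplasmic reticulum, after hydroxylation of their prolines and lysines. Fibrillar procollagens are trimmed outside the cell, assemble into fibrils and are cross-linked by lysyl oxidases, while type IV chains join end to end into the sheet-like network of basement membranes. Around the closing neural tube, basement membranes underlie the neuroepithelium and the surface ectoderm, and the mesenchyme between them lays down fibrillar collagens.

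A level is the deposited log2 value of the brightest probe set that names only that gene, and a gene was called changed when limma's moderated test gave a Benjamini-Hochberg adjusted p under 0.05 over all 18193 genes. Since probe sets differ in brightness, a higher level in 1 gene than in another was not read as more mRNA. The 95th percentile of 39 olfactory receptor genes, 1.42, served as the background level. Of the 42 collagen genes, 12 lay at or under it in the mean of all 3 stages and the other 30 lay above it at 1 stage or more.

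Markers of the neural tube and of tissues around it differed in level between stages. The mean level of 8 neural tube markers was 5.77 to 5.83 at GD8.5, 6.15 to 6.23 at GD9.0 and 6.78 to 6.89 at GD9.5, and all 8 lay above background at every stage. Cardiac muscle markers averaged 6.10 to 6.21, 3.12 to 3.24 and 1.42 to 1.59 at these stages, and yolk sac markers 6.18 to 6.21, 3.33 to 3.39 and 1.57 to 1.68. At GD9.5 the heart genes Myl4, Tnnt2, Myh6, Nppa and Ttn and the yolk sac genes Apob, Amn and Cubn lay at or under background. At GD9.0 compared with GD8.5, 5 of 8 neural tube markers were called higher, and all 10 cardiac and all 11 yolk sac markers lower. At GD9.5 compared with GD9.0, 7 of 8 were higher, and 10 of 10 and 9 of 11 lower. Over all genes 13.5% and 24.3% were called in these 2 comparisons. Primitive erythroid markers averaged 5.16 to 5.37, 6.47 to 6.55 and 7.14 to 7.29. The log2 difference between 3′ and 5′ actin control probe sets was 0.70 to 0.72, 0.53 to 0.59 and 0.90 to 0.97. In RNA from whole tissue, fewer cells of a type and less RNA per cell cannot be told apart, and the part of these shifts in the collagen results was not tested.

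At GD9.0 compared with GD8.5, mRNAs of 5 of the 11 fibrillar genes rose, while 3 of the 9 basement membrane genes fell. Of the 42 collagen genes, 6 were called higher at GD9.0 compared with GD8.5, namely Col3a1, Col11a1, Col5a2, Col2a1, Col1a2 and Col9a1, and 6 were called lower, namely Col4a1, Col13a1, Col17a1, Col18a1, Col4a2 and Col5a1. Over all genes, 13.5% were called in this comparison, 6.78% higher and 6.74% lower. Among genes above background in the mean of the arrays, 39.3% of collagen genes and 18% of all genes were called. The median log2 change was -0.01 for the collagen genes and -0.00 for all genes, with collagen changes between -0.70 and 2.11. With each array left out in turn the higher calls numbered 5 to 6, whereas 3 collagen genes were called lower without GD8.5 replicate 3, 3 without GD8.5 replicate 4 and 3 without GD9.0 replicate 3.

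At GD9.5 compared with GD9.0, Col1a2, Col3a1, Col5a2 and Col2a1 rose again, and the type IV chains Col4a1, Col4a2 and Col4a5 rose as well. In this comparison 10 collagen genes were called higher, namely Col1a2, Col3a1, Col4a5, Col5a2, Col4a2, Col14a1, Col4a1, Col2a1, Col8a2 and Col5a1, and 1, Col27a1, was called lower. Over all genes 24.3% were called, 14.1% higher and 10.3% lower. Among genes above background in the mean of the arrays, 32.1% of collagen genes and 33% of all genes were called. The median log2 change was 0.08 for the collagen genes and -0.01 for all genes. Both comparisons use the GD9.0 arrays and are therefore not independent of each other.

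**Figure D1:**
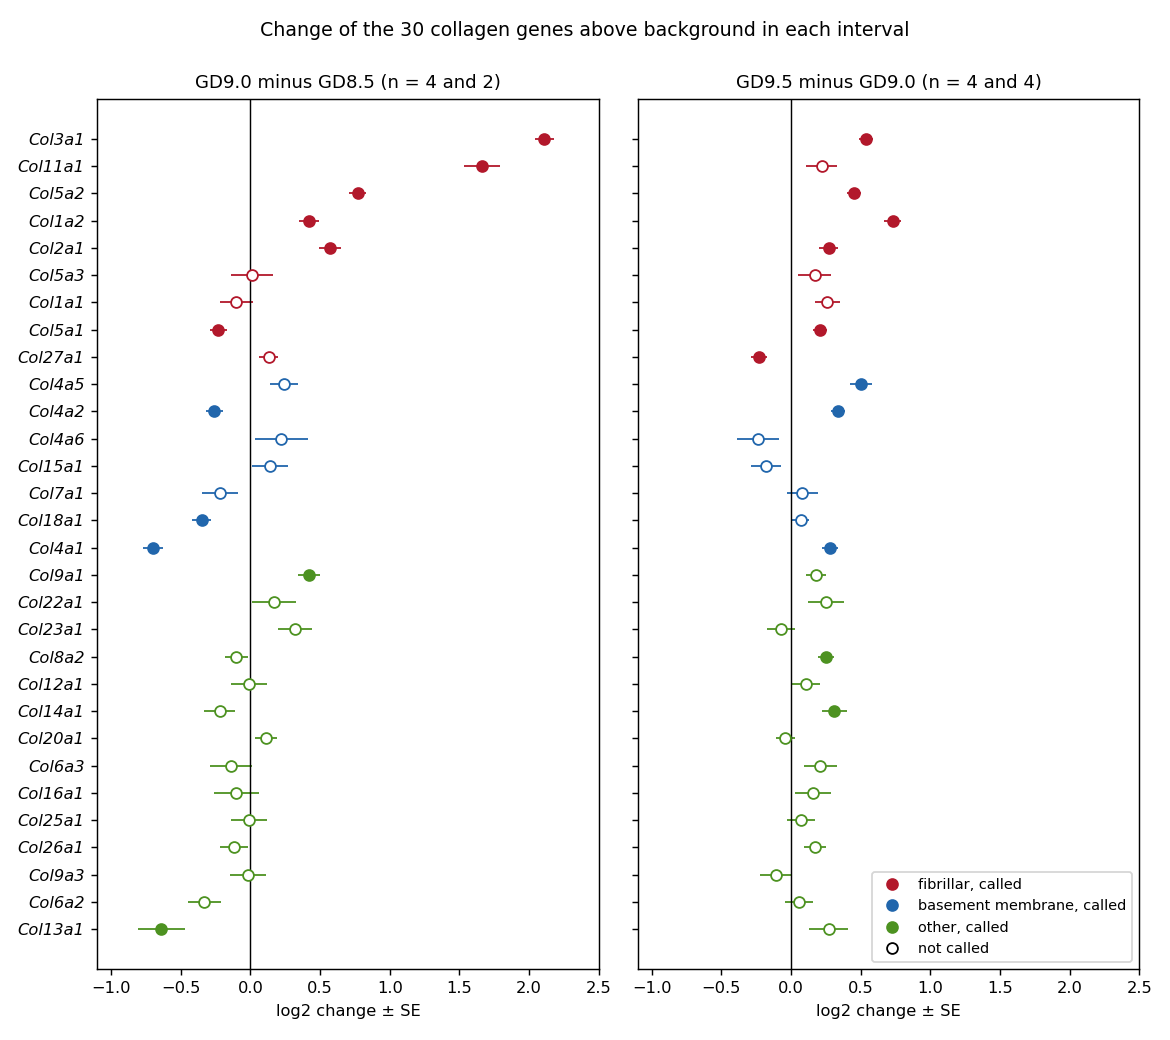
Log2 change ± SE of the 30 collagen genes above background at 1 stage or more, coloured by class. The intervals are GD9.0 minus GD8.5 (4 and 2 arrays) and GD9.5 minus GD9.0 (4 and 4 arrays). Open circles were not called in that interval. Col3a1 and Col11a1 stand far to the right in the first interval, at 2.11 and 1.66, while Col4a1 is at -0.70 there and at 0.28 in the second.

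Among the fibrillar genes, 5 of 11 were called higher at GD9.0 compared with GD8.5 and 1 lower, with a median log2 change of 0.15. The calls make up 54.5% of the class, where 13.5% of all genes were called. Col3a1, the chain of type III collagen in soft connective tissue and vessel walls, changed most. Its level was 6.24 and 6.35 at GD8.5, 8.37, 8.35, 8.49 and 8.38 at GD9.0, and 8.95, 8.86, 8.97 and 8.97 at GD9.5. No arrays of different stages overlapped, and the spread within a stage was small beside the steps. The log2 change was 2.11 ± 0.07 (SE) for GD9.0 against GD8.5, a 4.3-fold rise (limma, Benjamini-Hochberg adjusted p = 3.4e-09), and 0.54 ± 0.05 for GD9.5 against GD9.0, a 1.45-fold rise (adjusted p = 3.4e-05). Both of its probe sets were called higher in both intervals, and the second-interval change was 0.96 when probe sets shared between transcripts were left out. Over all genes the change of the second interval differed from that of the first for 11.6%, upward for 6.97% and downward for 4.67%, and for collagen genes this was called 5 times upward and 2 times downward. The Col3a1 rise was smaller in the second interval than in the first, by -1.57 ± 0.10 on the log2 scale (limma interaction contrast, adjusted p = 4.1e-06).

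Col11a1, a chain of the type XI collagen that seeds thin fibrils in cartilage and other tissues, stood at 3.82 and 3.17 at GD8.5, at 5.12, 5.19, 5.19 and 5.13 at GD9.0, and at 5.44, 5.34, 5.41 and 5.34 at GD9.5. The GD8.5 arrays differed from each other far more than arrays of the later stages did, yet both lay below every later array. The log2 change for GD9.0 against GD8.5 was 1.66 ± 0.13, a 3.17-fold rise (limma, adjusted p = 8.2e-06), and it was 1.36 when all 12 arrays were fitted. For GD9.5 against GD9.0 it was 0.22 ± 0.11 and did not pass the test, although the second probe set of the gene was called at 0.59 ± 0.12 (limma, adjusted p = 0.0037). The second interval's change was smaller than the first's by -1.44 ± 0.21 (limma interaction contrast, adjusted p = 0.0011), but by -0.68 ± 0.22 in the second probe set, which was not called (adjusted p = 0.08).

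The promoters of Col3a1 and Col11a1 are shown because these genes rose most, and that of Col1a2 because its fitted rise was larger in the later interval, a difference that was not called. They are the 250 bases before the RefSeq transcript start on GRCm38.p6, at chr1:45311288-45311537, chr3:114030290-114030539 and chr6:4505368-4505617, all on the plus strand. Capitals mark the word TATAAA, the word CCAAT and the word GGGCGG, or the reverse complement of each.
Col3a1: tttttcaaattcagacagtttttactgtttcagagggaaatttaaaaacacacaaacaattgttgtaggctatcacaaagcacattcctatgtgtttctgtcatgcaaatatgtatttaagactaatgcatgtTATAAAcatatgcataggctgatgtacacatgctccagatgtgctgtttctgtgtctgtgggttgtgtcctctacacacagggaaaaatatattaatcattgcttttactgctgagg
Col11a1: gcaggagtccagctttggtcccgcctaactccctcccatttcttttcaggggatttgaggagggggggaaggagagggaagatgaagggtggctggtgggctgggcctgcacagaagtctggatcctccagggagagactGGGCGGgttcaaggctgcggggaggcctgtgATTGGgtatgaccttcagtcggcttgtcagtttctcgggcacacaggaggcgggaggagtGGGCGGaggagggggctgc
Col1a2: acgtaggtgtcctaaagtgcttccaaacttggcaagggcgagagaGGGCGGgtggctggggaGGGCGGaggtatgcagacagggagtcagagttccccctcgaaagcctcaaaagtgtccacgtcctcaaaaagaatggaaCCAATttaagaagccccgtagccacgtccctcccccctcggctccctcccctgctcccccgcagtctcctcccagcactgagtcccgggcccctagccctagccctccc
Col3a1 held 1 TATAAA and neither of the other words, whereas Col11a1 and Col1a2 each held 1 CCAAT and 2 GGGCGG. On both strands of the same window, TATAAA occurred in 12.4% of 32851 RefSeq promoters, CCAAT in 33.8% and GGGCGG in 32.7%. Of 36 windows from 33 collagen genes, 5 held TATAAA, 13 held CCAAT and 21 held GGGCGG. A match is a description of letters and not a measured binding site.

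Col5a2, a chain of the type V collagen that starts and thins type I fibrils, read 5.92 and 5.79 at GD8.5, 6.63, 6.60, 6.67 and 6.58 at GD9.0, and 7.06, 7.09, 7.11 and 7.04 at GD9.5. It rose in 2 non-overlapping steps, of 0.77 ± 0.06 (1.7-fold, limma adjusted p = 6.8e-06) for GD9.0 against GD8.5 and 0.45 ± 0.05 (1.37-fold, adjusted p = 6e-05) for GD9.5 against GD9.0. Its partner chain Col5a1 had 3.83 and 3.77 at GD8.5, 3.59, 3.51, 3.60 and 3.57 at GD9.0, and 3.80, 3.68, 3.77 and 3.86 at GD9.5. Col5a1 was lowest at GD9.0, by -0.23 ± 0.06 against GD8.5 (limma, adjusted p = 0.036), and rose by 0.21 ± 0.05 at GD9.5 against GD9.0 (adjusted p = 0.013). The rise was called in 1 of 3 probe sets, and it was lost with the mean of the probe sets (0.08, adjusted p = 0.3), with an intensity trend (adjusted p = 0.07) and with all 12 arrays (adjusted p = 0.59). The fall was lost without GD8.5 replicate 3 (adjusted p = 0.22) and without each GD9.0 array in turn (0.054 to 0.077), among others, and none of the 3 Col5a1 probe sets was called when probe sets were tested singly in the first interval.

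Col1a2, a chain of type I collagen, the main fibril former of connective tissue, had levels of 6.56 and 6.50 at GD8.5, 6.90, 6.91, 7.07 and 6.89 at GD9.0, and 7.62, 7.66, 7.74 and 7.67 at GD9.5. The stages did not overlap. The log2 change was 0.42 ± 0.07 for GD9.0 against GD8.5 (1.33-fold, limma adjusted p = 0.0018) and 0.73 ± 0.06 for GD9.5 against GD9.0 (1.66-fold, adjusted p = 4.3e-06), or 1.13 when probe sets shared between transcripts were left out. Col1a1, the other type I chain, was dim throughout, at 2.07 and 2.23 at GD8.5, 1.83 to 2.20 at GD9.0 and 2.20 to 2.48 at GD9.5, and was called in none of the stage comparisons.

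Col2a1, the main collagen of cartilage, which is also made by the notochord and early neuroepithelium, read 5.23 and 5.14 at GD8.5, 5.73, 5.75, 5.86 and 5.68 at GD9.0, and 6.0, 5.93, 6.19 and 5.99 at GD9.5. It rose by 0.57 ± 0.08 at GD9.0 against GD8.5 (1.48-fold, limma adjusted p = 0.00078) and by 0.27 ± 0.07 at GD9.5 against GD9.0 (1.21-fold, adjusted p = 0.012), with no overlap between stages. Col27a1, a fibrillar collagen of developing cartilage, ran the other way late: 4.03, 4.17, 3.95 and 4.15 at GD9.5, against 4.28, 4.35, 4.31 and 4.30 at GD9.0, with 4.22 and 4.15 at GD8.5. Its change of -0.23 ± 0.06 for GD9.5 against GD9.0 (limma, adjusted p = 0.014) came from 1 of 2 probe sets and was -0.14 and not called when the probe sets were averaged.

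**Figure D2:**
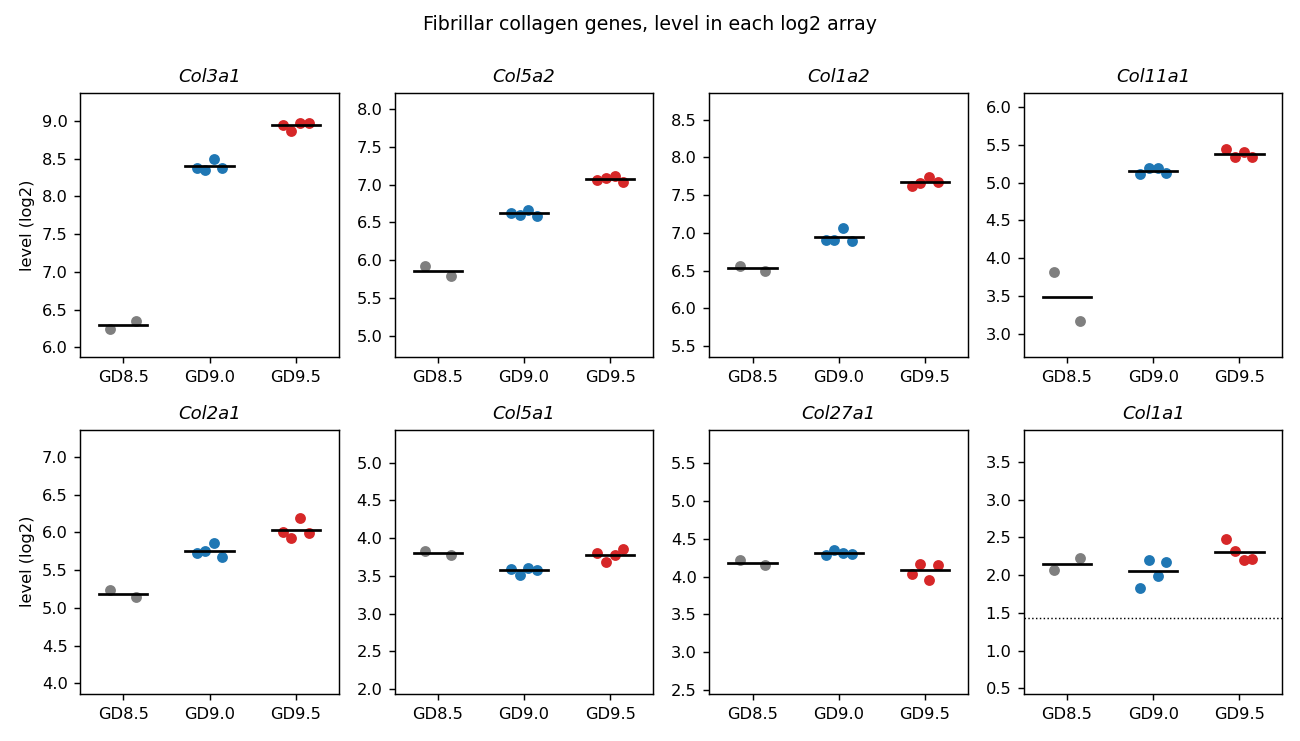
Log2 level of fibrillar collagen genes in each array, by stage from GD8.5 to GD9.5; each point is an array, bars are stage means, and the dotted line is the background of 1.42 where it falls in the panel. Col3a1, Col5a2, Col1a2 and Col2a1 climb at both steps without overlap, and Col5a1 is lowest at GD9.0.

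Markers of tissues that make these chains are set beside them. Of 14 head mesenchyme and paraxial mesoderm markers, 2, Prrx1 and Alx1, were higher at GD9.0 compared with GD8.5. The 7 lower ones were Pdgfra, Foxc1, Foxc2, Meox1, Tcf15, Tbx1 and Snai2. At GD9.5 compared with GD9.0, 1, Prrx1, was higher and 4, Pdgfra, Twist1, Tbx1 and Snai2, were lower. The mean level of the 14 was 3.91 to 3.97 at GD8.5, 3.68 to 3.73 at GD9.0 and 3.63 to 3.69 at GD9.5. Meox2 lay at or under background throughout. Of 9 cartilage and sclerotome markers none was called higher and 1, Sox9, lower at GD9.0 compared with GD8.5, and 1, Sox9, was higher and 2 lower at GD9.5 compared with GD9.0. Their means were 2.37 to 2.55, 2.31 to 2.41 and 2.25 to 2.33, with Nkx3-2 and Matn1 at or under background at all stages. Of 5 notochord and floor plate markers none was higher and 2 lower at GD9.0 against GD8.5, and none higher and 1 lower at GD9.5 against GD9.0, with means of 3.04 to 3.05, 2.69 to 2.79 and 2.67 to 2.72 and with Nog and Foxj1 at or under background throughout. Of 5 neural crest markers 4 were lower in each interval, with means of 4.66 to 4.74, 4.21 to 4.26 and 3.54 to 3.66. Of 7 pericyte and smooth muscle markers, cells of vessel walls, 3 were lower at GD9.0 against GD8.5 and 1, Acta2, at GD9.5 against GD9.0, with none higher. Their means were 3.22 to 3.27, 2.63 to 2.79 and 2.24 to 2.37, with Kcnj8 at or under background throughout. Of 4 genes listed as meninges markers, 2 were higher at GD9.0 compared with GD8.5, Nr2f2 and the fibril-binding proteoglycan Lum, and 1, Aldh1a2, was lower. Whether the samples held cells of the meninges was not tested. In the second interval 3 of these 4 were higher, and the list's mean levels were 4.21 to 4.22, 3.87 to 3.96 and 4.08 to 4.18 over the 3 stages, with Foxf2 at or under background at GD8.5 and GD9.0 and Aldh1a2 at GD9.0 and GD9.5. Of all genes, 13.5% and 24.3% were called in the 2 intervals. The part of these markers in the fibrillar changes was not tested.

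In the basement membrane class no gene was called higher and 3 of 9 lower at GD9.0 compared with GD8.5, and 3 were called higher and none lower at GD9.5 compared with GD9.0. In each interval 33.3% of the class was called, where 13.5% and 24.3% of all genes were. The class medians, -0.03 and 0.07, lay near 0. Col4a1 and Col4a2 encode the chains that make up most type IV collagen of embryonic basement membranes. Col4a1 read 7.18 and 7.15 at GD8.5, 6.33, 6.54, 6.48 and 6.51 at GD9.0, and 6.78, 6.65, 6.74 and 6.83 at GD9.5. Every GD9.0 array lay below every array of the other stages. The log2 change was -0.70 ± 0.07 for GD9.0 against GD8.5 (1.62-fold lower, limma adjusted p = 7.8e-05) and 0.28 ± 0.06 for GD9.5 against GD9.0 (1.22-fold higher, adjusted p = 0.0055). GD9.5 remained below GD8.5 by -0.42 ± 0.07 (adjusted p = 0.0013), a call made in 1 of 2 probe sets, with -0.15 (adjusted p = 0.28) in the other and -0.28 in their mean.

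Col4a2 followed a shallower dip, with 5.47 and 5.38 at GD8.5, 5.15, 5.18, 5.20 and 5.14 at GD9.0, and 5.44, 5.54, 5.46 and 5.56 at GD9.5. All GD9.0 arrays lay below the rest. Its log2 change was -0.26 ± 0.06 for GD9.0 against GD8.5 (limma, adjusted p = 0.014) and 0.34 ± 0.05 for GD9.5 against GD9.0 (adjusted p = 0.0005). The first of these was not called without GD8.5 replicate 3 (-0.22, adjusted p = 0.15), and the second was not called when all 12 arrays were fitted (0.29, adjusted p = 0.094). The change of direction was called for both chains, at 0.98 ± 0.11 for Col4a1 (limma interaction contrast, adjusted p = 0.00029) and 0.60 ± 0.09 for Col4a2 (adjusted p = 0.002).

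Parietal endoderm, the extraembryonic tissue known for abundant type IV collagen, was represented by 6 markers, of which 3 were called lower at GD9.0 compared with GD8.5, and 2 higher and 1 lower at GD9.5 compared with GD9.0. Their mean levels were 4.22 to 4.35 at GD8.5, 3.50 to 3.59 at GD9.0 and 3.58 to 3.66 at GD9.5, and all 6 lay above background at every stage. Of 12 endothelial markers, 2 were higher and 3 lower at GD9.0, and 1 higher and 4 lower at GD9.5 against GD9.0, with means of 3.31, 3.17 to 3.25 and 3.12 to 3.20. Of 10 surface ectoderm markers, 1 was higher and 7 lower at GD9.0 compared with GD8.5, and 8 were lower at GD9.5 compared with GD9.0. Of 7 genes listed for decidua and placenta, tissue of the mother and the placenta that surrounds the embryo, 6 were lower at GD9.0 compared with GD8.5. These were Prl8a2, Prl3c1, Prl7a1, Cdh1, Des and Hand2, and whether each marked only these tissues here was not tested. At GD9.5 compared with GD9.0, 1 was higher and 2, Cdh1 and Hand2, were lower. Mean levels of the 7 were 4.36 to 4.47, 2.44 to 2.6 and 2.45 to 2.51 over the 3 stages. Tpbpa lay at or under background throughout, Prl3c1 and Prl7a1 at both later stages and Hand2 at GD9.5. The decidual prolactin-family gene Prl8a2 was the only 1 of the 7 called higher at GD9.5 against GD9.0. It had the same order of stages as Col4a1, at 9.45 and 9.48 at GD8.5, 4.27 to 4.61 at GD9.0 and 5.54 to 5.79 at GD9.5. The 18S control probe sets were also lowest at GD9.0, averaging 9.82 to 9.83, 8.65 to 9.05 and 10.19 to 10.37. Of all genes, 13.5% and 24.3% were called in the 2 intervals. The part of the marker and control values in the type IV changes was not tested.

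Col4a5, a type IV chain of several specialised basement membranes, was not called at GD9.0 compared with GD8.5. It stood at 5.27 and 5.01 at GD8.5, 5.26, 5.34, 5.55 and 5.39 at GD9.0, and 5.97, 5.74, 5.88 and 5.94 at GD9.5. The first stages overlapped in range and the GD9.5 arrays lay above all others. The change was 0.50 ± 0.08 for GD9.5 against GD9.0 (1.41-fold, limma adjusted p = 0.0012). The other Col4a5 probe set was also called higher, at 0.28 ± 0.08 (limma, adjusted p = 0.033). Its neighbour Col4a6 was called in no stage comparison, at 2.78 and 2.84, 3.18, 3.47, 2.81 and 2.64, and 2.77, 2.81, 2.92 and 2.64 over the 3 stages. Both genes lie on the X chromosome. Xist, the RNA of the inactive X of female cells, read 8.87 at GD8.5, 8.53 to 8.70 at GD9.0 and 9.12 to 9.24 at GD9.5. The Y-linked Uty read 3.27 to 3.35, 3.76 to 4.03 and 3.28 to 3.40 at these stages. The Y-linked Eif2s3y read 4.79 to 4.83, 4.85 to 5.01 and 4.47 to 4.66. The part of a different mix of sexes in the Col4a5 result was not tested.

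Col4a5 and Col4a6 are transcribed away from each other with 1342 bases between their starts on RefSeq GRCm38.p6, and their promoters are shown because only Col4a5 was called. The windows of 250 bases lie at chrX:141475169-141475418 on the plus strand and chrX:141474077-141474326 on the minus strand, with the same words in capitals.
Col4a5: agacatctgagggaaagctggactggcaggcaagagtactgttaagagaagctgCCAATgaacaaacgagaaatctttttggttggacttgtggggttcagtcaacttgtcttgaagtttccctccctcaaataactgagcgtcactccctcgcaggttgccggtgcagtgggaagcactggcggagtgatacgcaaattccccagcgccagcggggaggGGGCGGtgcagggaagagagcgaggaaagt
Col4a6: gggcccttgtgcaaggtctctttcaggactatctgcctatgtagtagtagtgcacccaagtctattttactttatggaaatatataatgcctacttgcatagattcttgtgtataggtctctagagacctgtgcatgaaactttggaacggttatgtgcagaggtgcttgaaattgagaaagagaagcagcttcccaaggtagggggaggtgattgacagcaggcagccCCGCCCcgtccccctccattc
Col4a5 held 1 CCAAT and 1 GGGCGG, and Col4a6 held 1 GGGCGG, written as its reverse complement. Col4a1 and Col4a2 also lie head to head on opposite strands, on chromosome 8, but their starts are only 21 bases apart and the first bases of their transcripts overlap.

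Col18a1, a basement membrane proteoglycan and the source of the fragment endostatin, read 6.21 and 6.13 at GD8.5, 5.91, 5.81, 5.82 and 5.76 at GD9.0, and 5.88, 5.93, 5.99 and 5.78 at GD9.5. The later stages overlapped each other and lay below GD8.5. It fell by 0.35 ± 0.07 at GD9.0 against GD8.5 (1.27-fold lower, limma adjusted p = 0.0089), a call that was lost without GD8.5 replicate 3 (adjusted p = 0.095). The other Col18a1 probe set was also called lower, at -0.48 ± 0.07 (limma, adjusted p = 0.00056). GD9.5 was lower than GD8.5 by -0.28 ± 0.07 (limma, adjusted p = 0.015, and 0.13 without GD8.5 replicate 3). The other basement membrane genes, Col7a1, Col15a1, Col4a3 and Col4a4, were called in no stage comparison, and the last pair lay at or under background throughout.

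**Figure D3:**
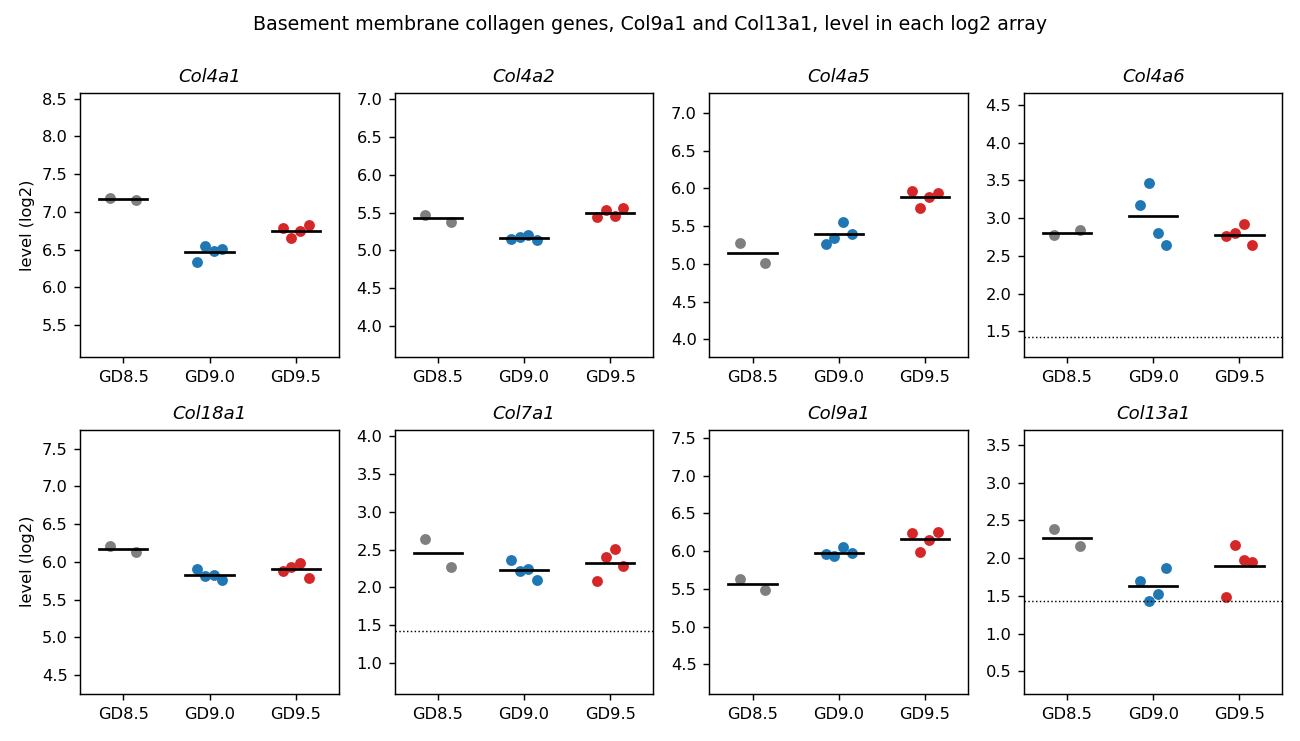
Log2 level of basement membrane collagen genes, Col9a1 and Col13a1 in each array, by stage from GD8.5 to GD9.5; points are arrays, bars are stage means, and the dotted line is the background of 1.42 where it falls in the panel. Col4a1 and Col4a2 are lowest at GD9.0, whereas Col4a5 is highest at GD9.5.

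Of the 22 other collagen genes, 1 was called higher and 2 lower at GD9.0 compared with GD8.5. At GD9.5 compared with GD9.0, 2 were called higher and none lower. That is 13.6% and 9.09% of the class, where 13.5% and 24.3% of all genes were called. Col9a1, a fibril-associated chain that coats type II fibrils, had 5.63 and 5.49 at GD8.5, 5.96, 5.94, 6.05 and 5.97 at GD9.0, and 6.24, 5.99, 6.15 and 6.25 at GD9.5. GD8.5 lay below both later stages, which overlapped. Its change was 0.42 ± 0.08 for GD9.0 against GD8.5 (1.34-fold, limma adjusted p = 0.0053, and 0.082 without GD8.5 replicate 4) and 0.60 ± 0.08 for GD9.5 against GD8.5 (1.51-fold, adjusted p = 0.00021), called in 1 and 2 of its 2 probe sets. Col9a2 lay at or under background and Col9a3 was called in no comparison of stages.

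Col13a1, a membrane-anchored collagen of cell adhesion sites, read 2.38 and 2.16 at GD8.5, 1.70, 1.43, 1.52 and 1.87 at GD9.0, and 1.49, 2.17, 1.98 and 1.95 at GD9.5. It was lower at GD9.0 compared with GD8.5 by -0.64 ± 0.17 (1.56-fold, limma adjusted p = 0.03). This call was lost without GD8.5 replicate 3 or 4 (adjusted p = 0.22 and 0.081) and without GD9.0 replicate 2 or 3 (0.068 and 0.069).

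The remaining calls concern levels at or under background in 1 or both stages, so that no fold is given. Col17a1, a collagen of the hemidesmosomes of epithelia, had 0.97, 1.12, 0.99 and 0.77 at GD9.0, against 1.22 and 1.43 at GD8.5, and 0.91, 0.86, 0.78 and 0.99 at GD9.5. Col6a4 read 1.18, 1.17, 1.12 and 1.00 at GD9.5, against 1.26 and 1.43 at GD8.5, with 1.09 to 1.16 at GD9.0. Both were called, at -0.36 ± 0.10 for Col17a1 at GD9.0 against GD8.5 and -0.23 ± 0.07 for Col6a4 at GD9.5 against GD8.5 (limma, adjusted p = 0.034 and 0.037), below the level at which a signal was taken as measured. Col17a1 was not called without GD8.5 replicate 4 or GD9.0 replicate 1, 3 or 4, and Col6a4 not without GD8.5 replicate 4, GD9.0 replicate 4 or GD9.5 replicate 3 or 4. Col14a1, a fibril-associated collagen, read 1.63, 1.40, 1.29 and 1.52 at GD9.5, against 1.09, 0.98, 1.18 and 1.34 at GD9.0, with 1.31 and 1.43 at GD8.5, and its stages overlapped. Col8a2, a network collagen of the corneal basement membrane, read 1.47, 1.46, 1.27 and 1.52 at GD9.5, against 1.13, 1.21, 1.13 and 1.24 at GD9.0, with 1.32 and 1.22 at GD8.5. They were called at 0.31 ± 0.09 for Col14a1 and 0.25 ± 0.06 for Col8a2 (limma, adjusted p = 0.027 and 0.013), and neither held with all 12 arrays. Col14a1 was also lost without GD9.0 replicate 1 or 2 or GD9.5 replicate 1 or 4. It was called in 1 of 3 probe sets. The call was lost with the mean of probe sets (0.14, limma adjusted p = 0.15) and with shared probe sets left out (0.11, adjusted p = 0.32).

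Over the whole day, 7 collagen genes were called higher at GD9.5 compared with GD8.5 and 4 lower. Over all genes 28.6% were called, 15.5% higher and 13.1% lower. Among genes above background in the mean of the arrays, 32.1% of collagen genes and 37.9% of all genes were called. Without GD8.5 replicate 4 the lower calls numbered 2, Col18a1 and Col4a1. This comparison shares its arrays with both interval comparisons. The rises were 2.64 ± 0.07 for Col3a1 (6.25-fold, limma adjusted p = 2.3e-10), 1.89 ± 0.13 for Col11a1 (3.7-fold), 1.22 ± 0.06 for Col5a2 (2.33-fold), 1.14 ± 0.07 for Col1a2 (2.21-fold), 0.84 ± 0.08 for Col2a1 (1.79-fold), 0.74 ± 0.10 for Col4a5 (1.67-fold) and 0.60 ± 0.08 for Col9a1. Thus 5 of the 7 were fibrillar, and no fibrillar gene was called lower over the day. The lower calls were Col4a1, Col18a1, Col17a1 and Col6a4.

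A total of 25 collagen genes were called in no stage comparison, 4 fibrillar, 5 of basement membranes and 16 others. Their changes ranged from -0.33 to 0.42, and 15 of them lay above background in the mean of the arrays. The median SD within a stage was 0.14 for collagen genes above background. Among the uncalled genes were Col6a2, a chain of the beaded filaments that link cells to their matrix, at 3.20, 3.13, 3.10 and 3.00 at GD9.0, against 3.25 and 3.62 at GD8.5, and the membrane collagen Col23a1, at 4.24, 3.76, 3.79 and 4.09 at GD9.0, against 3.59 and 3.71 at GD8.5. A call missed at this number of arrays does not show that a level stayed the same.

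Chains that share a collagen type, and the neighbours Col3a1 and Col5a2, were set against each other. The difference between the levels of partner chains was followed within each array for 13 pairs, chosen after their values were seen, and tested by exact two-sided permutation of arrays. From GD9.0 to GD9.5 the change of Col5a1 minus that of Col5a2 was -0.24 ± 0.05 and that of Col1a1 minus Col1a2 was -0.47 ± 0.14, in both cases without overlap between stages (exact permutation p = 0.0286, the smallest possible with 4 against 4 arrays, and 0.0743 after Benjamini-Hochberg adjustment over 13 pairs). Col4a5 minus Col4a6 (0.74 ± 0.25), Col4a2 minus Col4a6 (0.58 ± 0.20) and Col4a1 minus Col4a5 (-0.21 ± 0.06) gave the same smallest p. Col1a1 was dim, with means of 2.05 at GD9.0 and 2.30 at GD9.5 against a background of 1.42. Col4a1 minus Col4a2 changed by -0.06 ± 0.06 in this interval (exact permutation p = 0.4). At GD9.0 against GD8.5 it changed by -0.44 ± 0.05 and Col5a1 minus Col5a2 by -1.0 ± 0.04, in a design whose smallest p was 0.133. Col3a1 and Col5a2, which lie next to each other on chromosome 1, both rose, but Col3a1 by 1.34 ± 0.12 more in the first interval and by 0.09 ± 0.04 more in the second. No pair passed the adjusted threshold.

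The genes that modify, trim, bind and break down collagen did not move as 1 group. Of 64 such genes in 5 lists, 4 were called higher and 12 lower at GD9.0 compared with GD8.5, and 12 higher and 12 lower at GD9.5 compared with GD9.0. These are 25% and 37.5% of the 64, where 13.5% and 24.3% of all genes were called. Of all genes above background, 18% and 33% were called. Of 21 genes for chain modification and folding, 1 was higher and 3 lower at GD9.0 compared with GD8.5, and none was higher and 8 lower at GD9.5 compared with GD9.0. The lysyl hydroxylase Plod2 had 6.25, 6.40, 6.46 and 6.46 at GD9.0, against 7.18 and 7.20 at GD8.5 (-0.80 ± 0.07, limma adjusted p = 1.9e-05). The prolyl hydroxylase subunit P4ha1 had 5.54, 5.44, 5.72 and 5.70 at GD9.5, against 6.36, 6.28, 6.31 and 6.29 at GD9.0 (-0.71 ± 0.07, adjusted p = 1.9e-05). Further falls at GD9.0 against GD8.5 were P3h2, a prolyl hydroxylase acting on another carbon, at -0.60 ± 0.10 and P4ha2 at -0.56 ± 0.15, and these fell again at GD9.5 against GD9.0, by 0.43 ± 0.08 and 0.53 ± 0.12. P3h3 rose by 0.49 ± 0.11 in the first interval.

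Among 11 genes for propeptide cleavage and cross-linking, 2 were higher and 2 lower at GD9.0 compared with GD8.5. At GD9.5 compared with GD9.0, 4 were higher and 1 lower. That is 36.4% and 45.5% of the list, where 13.5% and 24.3% of all genes were called. Adamts3, a protease that removes the amino-terminal propeptide of fibrillar procollagens, read 3.90, 4.11, 4.06 and 3.69 at GD9.0, against 2.57 and 2.38 at GD8.5, and 4.49, 4.37, 4.52 and 4.51 at GD9.5. The stages did not overlap, and the changes were 1.46 ± 0.11 (limma, adjusted p = 4.6e-06) and 0.54 ± 0.09, although its other probe set was not called. Pcolce, which enhances removal of the carboxy-terminal propeptide, rose by 0.60 ± 0.13 and 0.61 ± 0.11 in the 2 intervals. Loxl1, a lysyl oxidase, rose at least 1.21-fold at GD9.5 against GD9.0, with its GD9.0 mean at or under background. Pcolce2 was lower at GD9.0 compared with GD8.5 by -0.50 ± 0.14, and the peroxidasin Pxdn, which cross-links type IV collagen, by -0.28 ± 0.06, with a further -0.17 ± 0.05 at GD9.5 against GD9.0.

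Of 9 collagen receptors none was called in the first interval, and 3 were higher at GD9.5 compared with GD9.0. These 3 are 33.3% of the list, where 24.3% of all genes were called. The tyrosine kinase receptor Ddr1 read 6.86, 6.79, 6.86 and 6.95 at GD9.5, against 6.07, 5.96, 5.89 and 5.96 at GD9.0 (0.89 ± 0.06, limma adjusted p = 9.3e-07), with 4 of its 8 probe sets called. Its relative Ddr2, which binds fibrillar collagen, rose by 0.61 ± 0.08 and the uptake receptor Mrc2 by 0.38 ± 0.11, with overlapping Mrc2 arrays between stages.

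Of 12 fibril and basement membrane partners, 1 was higher and 5 lower at GD9.0 compared with GD8.5. At GD9.5 compared with GD9.0, 3 were higher and 2 lower. That is 50% and 41.7% of the list, where 13.5% and 24.3% of all genes were called. The fibronectin gene Fn1 read 7.23, 7.15, 7.16 and 7.14 at GD9.0, against 8.15 and 8.04 at GD8.5 (-0.92 ± 0.07, limma adjusted p = 3.1e-06). The fibril-binding proteoglycan Dcn changed by -0.83 ± 0.17 and the basement membrane linker Nid2 by -0.74 ± 0.10 in the same comparison. Lum rose in both intervals, with 6.12, 6.04, 6.11 and 6.07 at GD9.0, against 5.16 and 5.23 at GD8.5, and 6.67, 6.62, 6.61 and 6.66 at GD9.5, with changes of 0.89 ± 0.06 and 0.55 ± 0.05. At GD9.5 against GD9.0 the linker Nid1 rose by 0.60 ± 0.07 and the collagen-binding Sparc by 0.19 ± 0.05, while Bgn changed by -0.45 ± 0.11 and Nid2 by -0.31 ± 0.08.

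Of 11 genes of collagen breakdown, 2 were lower at GD9.0 compared with GD8.5, the membrane collagenase Mmp14 at -0.59 ± 0.10 and the inhibitor Timp3 at -0.36 ± 0.09. At GD9.5 against GD9.0, 2 were higher and 1 lower. The calls make up 18.2% and 27.3% of the list in the 2 intervals, where 13.5% and 24.3% of all genes were called. Fap, a protease of activated mesenchyme, read 3.15, 3.05, 2.83 and 2.37 at GD9.5, against 1.58, 1.44, 1.8 and 1.70 at GD9.0, a rise of 1.22 ± 0.15. Mmp14 rose by 0.52 ± 0.08, and the gelatinase Mmp2 changed by -0.19 ± 0.06 with overlapping arrays. With GD8.5 replicate 3 or 4 left out, calls at GD9.0 against GD8.5 were lost for P4ha2, Pcolce, Pcolce2 and Timp3 (limma, adjusted p 0.073 to 0.18), for P3h3 without replicate 3 (0.15), and for Dcn and Pxdn without replicate 4 (0.11 and 0.083). P4ha2 was also lost without GD9.0 replicate 1, and Pcolce2 without GD9.0 replicate 3 or 4 or GD9.5 replicate 2. At GD9.5 against GD9.0 the calls of Mrc2, Mmp2, Pxdn and Sparc were lost when any of several single arrays was left out, and that of Nid2 without GD9.0 replicate 4 (0.051).

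Over the whole day 10 of the 64 genes were higher and 18 lower at GD9.5 compared with GD8.5, or 43.8%, where 28.6% of all genes were called. Of all genes above background, 37.9% were called. The log2 rises were 2.0 ± 0.11 for Adamts3, 1.22 ± 0.13 for Pcolce and 0.79 ± 0.13 for Bmp1, the protease that removes the carboxy-terminal propeptide, 1.45 ± 0.06 for Lum, 0.76 ± 0.08 for Nid1, 0.84 ± 0.09 for Ddr2, 0.78 ± 0.07 for Ddr1 and 0.71 ± 0.11 for P3h3. The falls were -1.06 ± 0.07 for Fn1, -1.05 ± 0.10 for Nid2, -1.09 ± 0.15 for P4ha2, -1.03 ± 0.10 for P3h2 and -0.89 ± 0.07 for Plod2, with smaller ones for Pcolce2, Pxdn, Mmp9, Mmp2 and Timp3. Fap was at least 2.69-fold higher at GD9.5, since its GD8.5 mean lay at or under background, and Dcn at least 2.27-fold lower, since its GD9.5 mean did. Without GD8.5 replicate 3 or 4 the calls of Pcolce2 (limma, adjusted p = 0.085 and 0.081), Mmp9 (0.13 and 0.082) and Timp3 (0.081 and 0.067) were lost, and that of Mmp2 without replicate 3 (0.17).

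**Figure D4:**
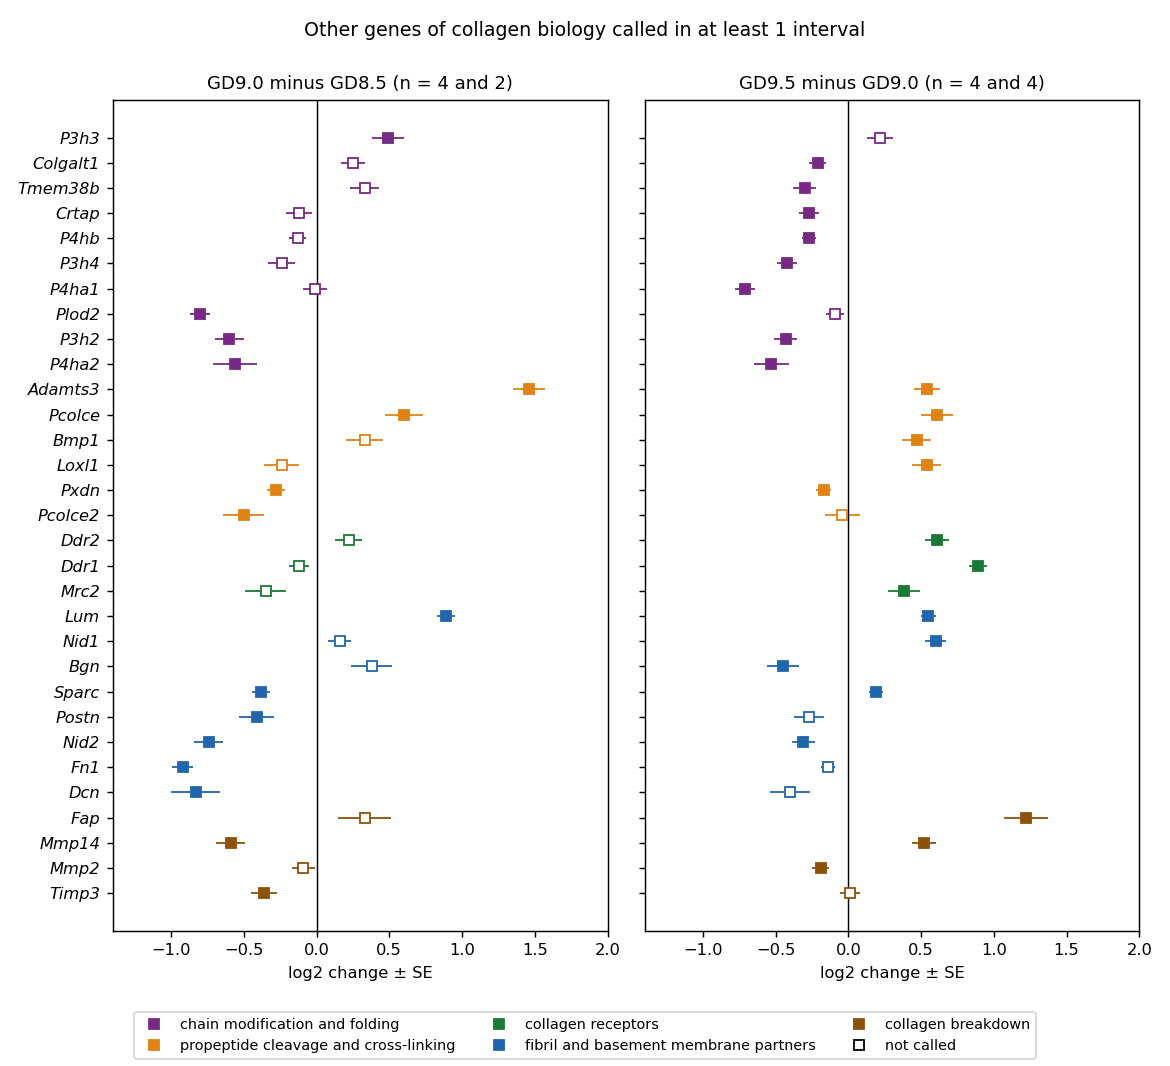
Log2 change ± SE of the other genes of collagen biology that were called in at least 1 interval, for GD9.0 minus GD8.5 (4 and 2 arrays) and GD9.5 minus GD9.0 (4 and 4 arrays), coloured by list; open squares were not called in that interval. Adamts3 is at 1.46 and Fn1 at -0.92 in the first interval, and P4ha1 is at -0.71 and Fap at 1.22 in the second.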

How the data were processed

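Neural tube RNA, 100 ng per sample, was hybridised to Affymetrix mouse arrays, per the labels' protocols. Affymetrix Expression Console 1.2.1 and the methods RMA and GCRMA are listed in the submitters' processing notes, which do not say which values each made. The authors deposited log2 values for 10 arrays, with medians near 1.8 and sorted values that differ by at most 0.272 between arrays, and linear intensity values for GD8.5 replicates 1 and 2, with medians of 92.25 and 98.32. The number of arrays limits the precision.

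Of 45101 probe sets, 64 controls were left out, and 34945 named 1 gene, 932 several and 9160 none in the platform annotation. The brightest probe set that named 1 gene stood for each of 18193 genes. Of these, 161 were absent from the RefSeq table. limma 3.58.1 in R 4.3.3 fitted a mean per stage to the 10 log2 arrays (7 residual and 3.86 prior degrees of freedom), with Benjamini-Hochberg adjustment over all genes and calls under 0.05. The fit was tested on simulated data with changes placed at GD9.5, and only GD9.5 against GD9.0 was scored there. Pairs of chains were tested by exact permutation with scipy 1.17.1.

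The collagen genes, classes, marker lists and other gene lists were chosen with earlier results of these data known. Values in every array are given for collagen genes called in a stage comparison, and up to 3 called rises and falls per comparison are named from each other list. Col4a6, Col1a1, Col6a2 and Col23a1 were named after their values were seen. Of the lists, 13 genes were not used here. Alternatives were median centring, repeated quantile normalization, the mean of probe sets, leaving out shared probe sets, genes above background alone, array weights, a robust spread with an intensity trend, the replicate number as a block, all 12 arrays after log2 and quantile normalization, and leaving out each array.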

Additional observations from a re-analysis of the deposited data

Results flagged for a closer look

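Among 84 sets of 4 arrays, 3 held an array far from its companions by Dixon's criterion, where chance gives about 1 in 20 sets. Col1a2 stood at 7.07 in GD9.0 replicate 3, against 6.89 to 6.91 in the other GD9.0 arrays, still below every GD9.5 array. Col9a2 stood at 1.28 in GD9.0 replicate 2, against 1.33 to 1.34, and at 1.44 in GD9.5 replicate 1, against 1.34, at levels near background.

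For 7 collagen genes the change of the second interval differed from that of the first by limma's interaction contrast, 5 upward and 2 downward, where 11.6% of all genes were called, 6.97% upward and 4.67% downward. The log2 differences were -1.57 for Col3a1 and -1.44 for Col11a1, which rose more in the first interval. They were 0.98 for Col4a1, 0.91 for Col13a1, 0.60 for Col4a2, 0.45 for Col5a1 and 0.42 for Col18a1, which were lower at GD9.0 compared with GD8.5. The upward differences numbered 2, Col4a1 and Col4a2, without GD8.5 replicate 3. They numbered 3, with Col5a1, without GD8.5 replicate 4, GD9.0 replicate 2 or GD9.5 replicate 2. The Col5a1 difference was called in 1 of 3 probe sets. It was lost with the mean of probe sets (0.22, limma adjusted p = 0.17), an intensity trend with robust spread (0.058) and all 12 arrays (0.13). The calls of Col13a1 and Col18a1 were each lost without any of several single arrays, among them GD9.0 replicate 3 (adjusted p = 0.12 and 0.075) and GD9.5 replicate 3 (0.075 and 0.054).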

How the results depend on the processing

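No result changed sign among the called collagen changes, and over all alternatives 692 of the values for 41 single collagen results kept their call and 77 lost it. The calls of Col3a1, Col5a2, Col1a2, Col2a1, Col11a1, Col4a1 and Col4a5 held in every alternative run. Leaving out each array in turn gave 5 to 6 higher and 3 to 7 lower collagen calls at GD9.0 against GD8.5, 9 to 11 and 1 at GD9.5 against GD9.0, 7 to 8 and 2 to 5 at GD9.5 against GD8.5, and 2 to 5 and 2 to 3 for the difference of intervals. For the 64 other genes the ranges were 2 to 5 and 7 to 12, 10 to 14 and 8 to 12, 9 to 11 and 11 to 18, and 5 to 7 and 3 to 6. With all 12 arrays, GD9.5 against GD9.0 gave 6 higher and 0 lower collagen calls and 7 lower calls among the other genes, and the difference of intervals gave 3 higher collagen calls and 3 lower calls among the other genes. The mean of probe sets also left 0 lower collagen calls at GD9.5 against GD9.0, as Col27a1 changed by -0.14 there and was not called. Testing only genes above background gave 2 lower collagen calls at GD9.5 against GD8.5, as Col17a1 and Col6a4 were then left out. It also gave 4 downward interval differences. An intensity trend with robust spread gave 7 higher calls among the other genes at GD9.0 against GD8.5. The cause of the other moves was not tested. The medians of the basement membrane class lay so near 0 that their sign turned at GD9.0 against GD8.5, to 0.07 with the mean of probe sets.

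The labels do not say whether equal replicate numbers pair samples. Deviations from the stage means correlated at -0.059 to 0.122 across 8 same-numbered pairs and -0.165 to 0.155 across 24 others. The 2 GD8.5 arrays deviate by equal and opposite amounts, so these pairs are not independent. The ranges therefore do not settle whether samples were paired. With the replicate number as a block, 6 collagen genes were called higher and 2 lower at GD9.0 against GD8.5, 10 and 1 at GD9.5 against GD9.0, and 8 and 3 at GD9.5 against GD8.5. With 2 arrays at GD8.5, calls against that stage depend most on single arrays.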
